A study of Homo sapiens with 8 samples.

Results

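The 9 genes described here are HLA-B, HLA-C, B2M, TAP1, TAP2, TAPBP, NLRC5, PSMB8 and PSMB9, which make, load or switch on the MHC class I molecule. They were taken by name, as the rows whose Ensembl identifiers carry these symbols in GENCODE 29, and all 9 were found among 58721 genes. The samples are cultures of CHLA-20 and of NGP, 2 lines derived from human neuroblastoma, whose messenger RNA was sequenced. Cells had 6 days of vehicle (DMSO) or of an inhibitor of PRMT5, the enzyme that dimethylates arginines of histones and splicing proteins symmetrically. The sample labels spell the inhibitor JSK591 and the treatment protocol spells it GSK591. It was given at an IC50 dose whose concentration is not stated, and JSK591 is used here. The 4 groups were CHLA-20 with DMSO, CHLA-20 with JSK591, NGP with DMSO and NGP with JSK591, with 2 libraries each. The media differed (IMEM with an insulin, transferrin and selenite supplement for CHLA-20, RPMI1640 for NGP), so line and medium cannot be told apart. Both are established lines, and nothing in the labels names other cells beside them. Nothing says that the replicates came from separate cultures, so the p-values rest on the spread between these libraries alone, and that spread may be technical. In bulk RNA, fewer cells with a transcript and less transcript per cell cannot be told apart.

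Class I molecules show peptides from inside the cell to cytotoxic T cells. The polymorphic heavy chain (HLA-B, HLA-C and their relatives) pairs with the invariant light chain B2M. Peptides are cut by proteasomes, whose interferon-induced form carries PSMB8 and PSMB9, are pumped into the endoplasmic reticulum by the TAP1 and TAP2 transporter, and are loaded with the help of tapasin, the product of TAPBP. NLRC5 is the transactivator that switches these genes on together, bound to RFX and other factors at their promoters. Neuroblastoma is known for low class I levels, above all where MYCN is amplified.

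The promoters of B2M, HLA-B and HLA-C are shown because these 3 genes make the molecule itself. The bases lie before the start of transcription in RefSeq (GRCh38.p14) and in GENCODE 29, read 5′ to 3′ on the gene's strand. Capitals mark matches, on either strand, to TTCNNTTTC (the core of an interferon response element), GGGATTCCC (a site type bound by NF-kB) or ATTGG (the CCAAT box bound by NF-Y).
B2M, chr15:44711267-44711486, plus strand: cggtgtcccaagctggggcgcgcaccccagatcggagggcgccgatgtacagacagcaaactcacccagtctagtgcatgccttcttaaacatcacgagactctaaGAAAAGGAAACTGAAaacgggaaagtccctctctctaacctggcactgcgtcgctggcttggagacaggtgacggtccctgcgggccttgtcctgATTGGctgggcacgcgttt
HLA-B, chr6:31357189-31357429, minus strand: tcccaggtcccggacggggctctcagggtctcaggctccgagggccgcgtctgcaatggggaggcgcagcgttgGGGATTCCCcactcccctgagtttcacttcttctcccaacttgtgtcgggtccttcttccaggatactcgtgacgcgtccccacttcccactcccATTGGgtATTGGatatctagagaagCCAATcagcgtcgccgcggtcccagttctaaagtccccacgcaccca
HLA-C, chr6:31272131-31272342, minus strand: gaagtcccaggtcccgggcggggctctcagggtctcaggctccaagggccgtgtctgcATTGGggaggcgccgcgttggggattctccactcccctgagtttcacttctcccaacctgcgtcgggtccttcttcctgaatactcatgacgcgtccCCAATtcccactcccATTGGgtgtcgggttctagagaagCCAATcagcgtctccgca
The B2M stretch holds overlapping copies of TTCNNTTTC in its reverse complement and 1 ATTGG. The HLA-B stretch holds GGGATTCCC, which is in 0.384% of 35116 RefSeq promoter windows of the same total length (300 bases), and HLA-C holds no exact copy of it. ATTGG is common, in 34.6% of windows. TTCNNTTTC, in 8.11% of windows, was found in 5 of the 8 members with a window (B2M, TAP1, TAP2, TAPBP and PSMB8), and NLRC5 had no window. The other searched letters were TTCNNNGAA (7.66% of windows; 2 members, TAP1 and PSMB8), TGACGTCA (1.85%; 0 members) and TGACGCAA (0.513%; 0 members). These matches describe letters and say nothing of whether a factor binds.

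Of the 9 genes, only B2M and NLRC5 had enough counts to be measured. HLA-C, TAP1, TAP2, TAPBP, PSMB8 and PSMB9 were listed at 0 counts in all 8 libraries, at 33188542 to 34914902 gene counts per library. HLA-B was listed at 8 and 4 counts in the CHLA-20 DMSO libraries, 2 and 1 in the CHLA-20 JSK591 libraries, and 0 in all 4 NGP libraries. These 7 genes lie close together in the MHC on chromosome 6, between the start of HLA-C at 31268749 and the end of TAPBP at 33314387 (GRCh38). B2M is on chromosome 15 and NLRC5 on chromosome 16.

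The 0 counts in the MHC cannot be read as low expression, because genes that every cell uses were listed at 0 there too. Between HLA-C and TAPBP, 92 of 106 protein-coding genes (86.8%) had 0 counts in all libraries summed, against 1805 of 19940 protein-coding genes overall (9.05%). The splicing helicase DDX39B, the kinase subunit CSNK2B, the Sm-like protein LSM2 and the prefoldin subunit PFDN6 were at 0, and the ribosomal protein RPS18 had 11 counts over 8 libraries (the stretch and these names were chosen after the 0 counts were seen). Only 4 genes of the stretch passed 10 counts in total: HLA-B, RPS18, the chaperone BAG6 with 38 and the bromodomain protein BRD2 with 276. The stretch of 0 counts went on towards the class I genes further out, with 28 of 32 genes at 0 in the next 1 Mb on the HLA-C side and 22 of 25 in the 1 Mb after that. On the TAPBP side it ended soon: 4 of 19 genes were at 0 in the next 1 Mb and 0 of 12 in the one after, with genes placed by their lower coordinate.

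**Figure D1:**
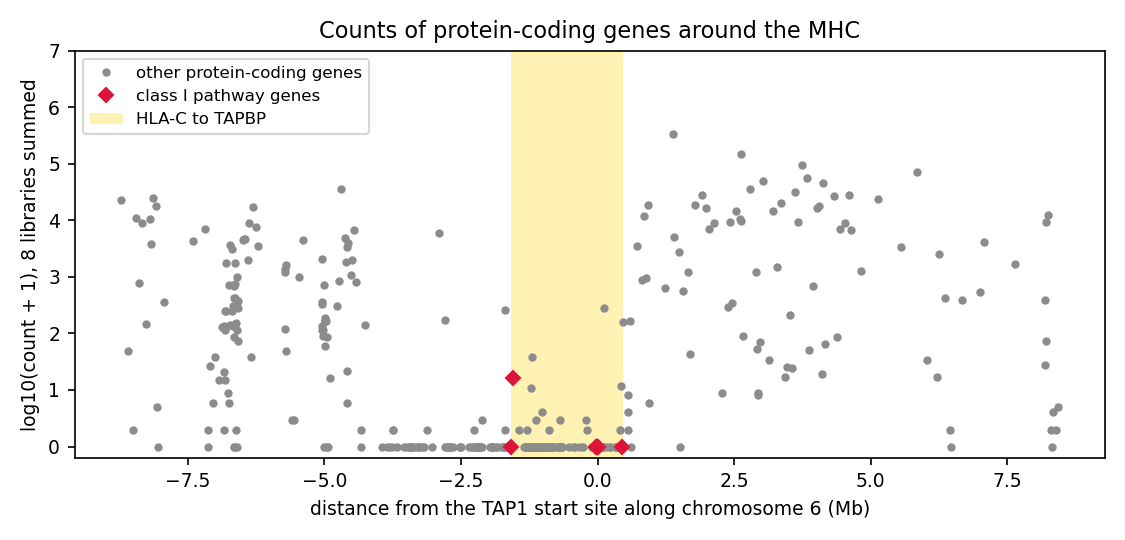
Summed counts of the 8 libraries for each protein-coding gene around the MHC, as log10(count + 1), against the distance from the TAP1 start site in Mb; diamonds are genes of the class I set and the shaded stretch runs from HLA-C to TAPBP. In the shaded stretch 92 of 106 genes lie at 0, while most genes drawn to its right lie well above 0.

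Of all 50-base windows in GENCODE 29 transcripts of TAPBP, 4.73% also occur in a transcript of another gene. The share was 3.05% for PSMB9, 5.70% for HLA-C, 9.78% for TAP1, 17.8% for HLA-B, 18.2% for PSMB8 and 31.3% for TAP2, and 0% for B2M and NLRC5. Of the other genes listed at 0, LSM2 shared 0%, DDX39B 26.7%, PFDN6 27.2% and CSNK2B 29.8%. Only annotated genes were compared, so sequence shared with the rest of the genome is not covered. Reads set aside for several alignments made up 19.2% to 22.0% of counted reads and reads ambiguous between genes 6.77% to 7.18%, and their part in the 0 counts was not tested. Exons shared with a neighbour took 32.3% of the exonic bases of TAP2, 20.6% of PSMB8 and 18.9% of HLA-B. PSMB8-AS1, the antisense RNA beside PSMB8, was listed at 0 in all libraries.

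No direction under JSK591, no difference between lines and no level is therefore given for HLA-B, HLA-C, TAP1, TAP2, TAPBP, PSMB8 and PSMB9. The 12 HLA-B counts with DMSO against 3 with JSK591 in CHLA-20 gave no call when low counts were not filtered (log2 change -1.92, edgeR adjusted p = 0.375). In that fit the line difference of HLA-B passed (-5.62, edgeR adjusted p = 0.0201), and it too rests on 12 counts against 0 in a stretch where most genes were not counted.

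B2M, the light chain of every class I molecule (ENSG00000166710.18, chromosome 15, 44711487 to 44718877), stood at 50.4 and 46.0 CPM (counts scaled to the size of the library) in the CHLA-20 DMSO libraries and at 42.0 and 46.5 in those with JSK591. In NGP it stood at 35.0 and 34.8 CPM with DMSO and 29.3 and 34.1 with JSK591. The CHLA-20 groups overlapped, while both NGP JSK591 libraries lay below both NGP DMSO libraries. Neither change passed. The log2 change was -0.12 ± 0.06 (estimate ± SE; 95% interval -0.24 to -0.01; edgeR adjusted p = 0.081) in CHLA-20 and -0.14 ± 0.06 (-0.26 to -0.01; edgeR adjusted p = 0.0772) in NGP. These intervals are for B2M alone, before adjustment over all genes. The difference between the lines' changes was -0.01 ± 0.09 (95% interval -0.18 to 0.16).

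The B2M result lies near the threshold in the main fit. Without the filter on low counts B2M lay further from it, at -0.12 in CHLA-20 (edgeR adjusted p = 0.372) and -0.14 in NGP (edgeR adjusted p = 0.315). In CHLA-20 it passed without JSK591 replicate 2 (-0.20) and after removal of the GC trend (-0.17). In NGP it passed without JSK591 replicate 2 (-0.25), without CHLA-20 DMSO replicate 2 (-0.16) and with median-of-ratios scaling (-0.16). In both lines the estimate was below 0 under every alternative run, and lay nearest to 0 at -0.05 without CHLA-20 JSK591 replicate 1 and -0.06 without NGP JSK591 replicate 1.

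Between the untreated lines B2M was lower in NGP. Its mean was 48.2 ± 3.1 CPM in CHLA-20 (SD, n = 2) and 34.9 ± 0.14 in NGP, a log2 difference of -0.47 ± 0.06 (edgeR adjusted p = 2.83e-10), or a ratio of 0.723. The groups did not overlap. Across all genes tested, 75.5% were called between the lines, 36.6% higher and 38.9% lower in NGP, so a call as such is common here.

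NLRC5, the class I transactivator (ENSG00000140853.15, chromosome 16, 56989485 to 57083531), differed far more between the lines. It stood at 6.27 and 5.30 CPM in CHLA-20 with DMSO and at 0.238 and 0.150 in NGP with DMSO, from 391 counts over the CHLA-20 libraries against 13 over the NGP libraries. NGP was thus lower by a log2 difference of -4.87 ± 0.27 (edgeR adjusted p = 1.3e-24). The ratio of the depth-scaled counts was 29.1, with an exact binomial interval of 16.8 to 55.1 that covers counting error only. B2M was thus slightly lower in NGP, and NLRC5 lower almost to the limit that 3 counts set, which is 0.0859 to 0.0904 CPM per library. NLRC5 passed the filter on low counts through its CHLA-20 libraries alone. A gene tested in that way can only be lower in NGP, so the shared direction of the 2 members carries no weight of its own.

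JSK591 gave no call for NLRC5. With JSK591 it stood at 4.96 and 5.11 CPM in CHLA-20, below both DMSO libraries, and at 0.260 and 0.0588 CPM in NGP, around them. The log2 change was -0.20 ± 0.14 in CHLA-20 (95% interval -0.48 to 0.08; edgeR adjusted p = 0.277). In NGP it was -0.27 ± 0.62 (95% interval -1.51 to 0.96; edgeR adjusted p = 0.776), from 13 counts against 11. A change of up to about the size of these bounds in NGP was not detectable at this depth, and leaving out 1 NGP library moved the estimate between -1.69 (without JSK591 replicate 1) and 0.41 (without JSK591 replicate 2).

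**Figure D2:**
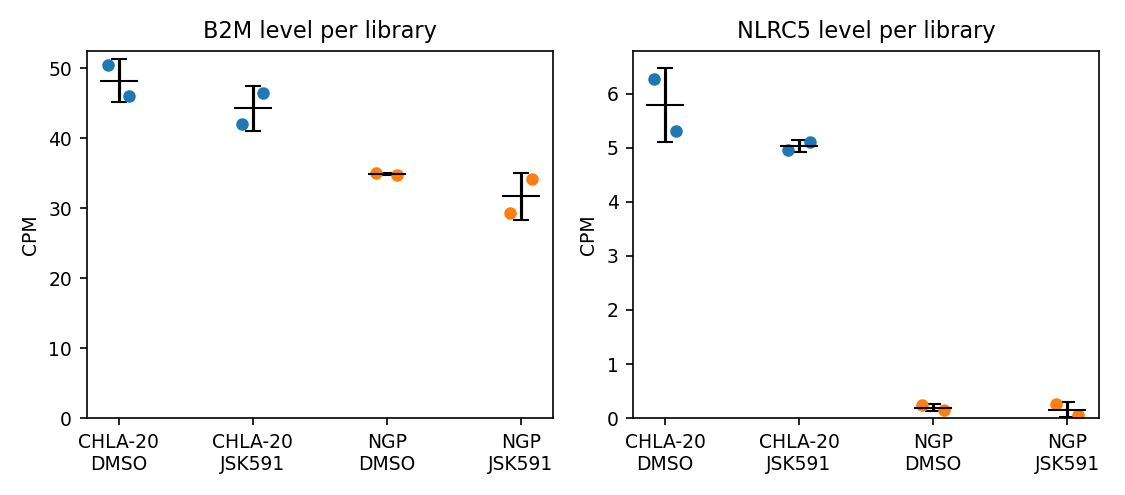
CPM of B2M (left) and NLRC5 (right) in each of the 8 libraries by line and treatment; points are libraries, bars the mean and SD of 2. B2M runs from 50.4 CPM down to 29.3 with NGP below CHLA-20, and NLRC5 from 6.27 CPM in CHLA-20 to at most 0.260 in NGP.

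Per kilobase of annotated exon, the mean level with DMSO was 7.94 CPM per kb for B2M and 0.467 for NLRC5 in CHLA-20, and 5.74 and 0.0157 in NGP. By the same measure the loading chaperone gene CALR stood at 123 and 139 CPM per kb and the proteasome gene PSMB5 at 54.0 and 67.8. B2M was thus below these parts of its own pathway in both lines, and the size of the gap depends on the lengths used. The annotated exons over all transcripts sum to 6079 bases for B2M and 1765 for PSMB5. Before division by length, B2M averaged 48.2 CPM and PSMB5 95.2 CPM in CHLA-20 with DMSO. Over the 8 libraries, the 5 protein-coding genes whose centred log2 CPM lay nearest to B2M were ALG9, DECR1, MIEN1, MARK1 and KIF23, with a root mean square difference of 0.0455 to 0.0575 against a median of 0.400 over 12287 genes. HLA-B and TAP1 did not pass the filter and were not compared in this way.

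In CHLA-20, 39.4% of the 19395 genes tested were called with JSK591 (16.9% higher, 22.4% lower, median log2 change -0.02). In NGP 36.2% were called (16.8% higher, 19.4% lower, median 0.00). The difference between the lines' changes was called for 27.7%. Against these shares, 0 of the 2 tested members were called in either line or in the difference (B2M at an unadjusted p of 0.035 and 0.0307 in CHLA-20 and NGP). The other genes of the pathway, most of them outside the MHC, are given below by role. Their counts of genes that rose or fell with JSK591 are to be read against the shares above.

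Chaperones that hold the class I heavy chain moved in opposite directions in the lines. Calreticulin, CALR, stood in CHLA-20 at 330 and 337 CPM with DMSO and at 427 and 423 with JSK591, and in NGP at 375 and 377 with DMSO and at 276 and 287 with JSK591. It rose by 0.35 ± 0.04 in CHLA-20 and fell by 0.42 ± 0.04 in NGP, and the groups did not overlap in either line. The difference of the changes, -0.77 ± 0.05, passed (edgeR adjusted p = 1.21e-18). The disulphide isomerase PDIA3 rose by 0.36 ± 0.04 and fell by 0.14 ± 0.04 (difference -0.50 ± 0.05), and calnexin, CANX, rose by 0.16 ± 0.04 and fell by 0.16 ± 0.04 (difference -0.33 ± 0.05). These chaperones fold many glycoproteins besides class I.

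The next genes trim or destroy peptides. TPP2, a cytosolic peptidase, rose by 0.23 ± 0.04 in CHLA-20 and fell by 0.18 ± 0.04 in NGP (difference -0.41 ± 0.06). THOP1, which destroys peptides in the cytosol, rose by 0.25 ± 0.04 in CHLA-20 (0.41 with the GC trend removed) and gave 0.08 ± 0.04 in NGP (0.14 and called without NGP DMSO replicate 2). ERAP1, the main trimming enzyme of the endoplasmic reticulum, gave -0.08 ± 0.12 and 0.33 ± 0.14, neither passing (edgeR adjusted p = 0.631 and 0.0503), and in NGP it passed when scaled by total counts (0.36), when only genes with 10 counts throughout were kept (0.35) and after removal of the GC trend (0.35). ERAP2 gave -0.15 ± 0.36 and 0.21 ± 0.37 and the tapasin relative TAPBPL -0.13 ± 0.14 and 0.14 ± 0.20, none passing. Of the 11 genes of peptide loading and trimming, all tested, 5 rose and 2 fell in CHLA-20 (median -0.05) and 0 rose and 4 fell in NGP (median -0.03). Between untreated lines 7 were higher and 3 lower in NGP, against 36.6% and 38.9% of all genes tested. Among them were TAPBPL (-1.63 ± 0.17), LNPEP, a trimming enzyme of endosomes (0.77 ± 0.08), and TPP2 (0.71 ± 0.04). ERAP1 was lower by 0.69 ± 0.13 on the log2 scale.

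Of the 3 exchanged subunits of the immunoproteasome only PSMB10 lies outside the MHC. It was near the limit of counting, at 0.119 to 0.317 CPM in CHLA-20 and 0.210 to 0.462 in NGP, with changes of -0.11 ± 0.60 and 0.46 ± 0.51 that did not pass. Its exons share 34.8% of their bases with a neighbour. The subunits that the immunoproteasome replaces were far higher. PSMB5, in whose place PSMB8 sits, stood at 97.4 and 93.0 CPM in CHLA-20 with DMSO and 111 and 110 with JSK591. It rose there by 0.22 ± 0.04 and gave -0.10 ± 0.04 in NGP (edgeR adjusted p = 0.0559), where it passed without CHLA-20 DMSO replicate 2 (-0.12), NGP DMSO replicate 1 (-0.15) or NGP JSK591 replicate 2 (-0.15), with median-of-ratios scaling (-0.12) and with the GC trend removed (-0.15). PSMB6, replaced by PSMB9, gave 0.01 ± 0.04 and 0.05 ± 0.04 without passing. PSMB7, replaced by PSMB10, fell by 0.11 ± 0.04 in CHLA-20, a call lost without CHLA-20 DMSO replicate 1 (-0.10) or 2 (-0.10), CHLA-20 JSK591 replicate 2 (-0.05) or NGP JSK591 replicate 1 (-0.08). Without CHLA-20 JSK591 replicate 1 it was -0.17.

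The proteasome activator PA28 is built from PSME1 and PSME2, which interferon induces, and the nuclear form from PSME3. PSME1 stood at 48.3 and 47.5 CPM in CHLA-20 with DMSO and 37.3 and 39.8 with JSK591, and at 21.3 and 21.7 in NGP with DMSO and 18.3 and 18.7 with JSK591. It fell by 0.31 ± 0.05 in CHLA-20 and by 0.22 ± 0.07 in NGP, where the call was lost without NGP DMSO replicate 2 (-0.205, edgeR adjusted p = 0.0516). PSME2 gave -0.02 ± 0.06 and -0.12 ± 0.06, neither passing. PSME3 rose by 0.37 ± 0.04 and 0.19 ± 0.04. The assembly factor POMP rose by 0.14 ± 0.05 in CHLA-20 (0.13 and not called without DMSO replicate 1, 0.11 and not called without JSK591 replicate 1). Untreated NGP had lower PSME1 (-1.16 ± 0.06) and POMP (-0.42 ± 0.05) and higher PSME2 (0.15 ± 0.06, not called without NGP DMSO replicate 1 at 0.13) than CHLA-20. Of these 5 genes with PSMB10, 2 rose and 1 fell in CHLA-20 and 1 rose and 1 fell in NGP (medians -0.02 and 0.02).

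Of 14 genes of the constitutive core, 13 could be tested, and PSMB3, a subunit of every proteasome on chromosome 17, was listed at 1 count over 8 libraries. In CHLA-20 6 rose and 2 fell (median 0.09), and in NGP 1 rose and 2 fell (median 0.03). PSMA2 rose in CHLA-20 by 0.67 ± 0.15, from 2.60 and 2.96 to 4.21 and 4.63 CPM, with 34.6% of its exonic bases shared with another gene. PSMA3 rose by 0.24 ± 0.05 in CHLA-20 and 0.23 ± 0.05 in NGP. PSMB4 fell by 0.25 ± 0.04 in NGP and by 0.15 ± 0.04 in CHLA-20 (-0.10 and not called without CHLA-20 DMSO replicate 2). PSMA6 fell in NGP by 0.43 ± 0.14, a call lost without DMSO replicate 2 (-0.38) or JSK591 replicate 1 (-0.34). Between untreated lines 7 of the 13 core genes were higher and 1 lower in NGP, against 36.6% and 38.9% of all genes tested. PSMA2 stood at 1.09 ± 0.15, PSMA6 at 0.88 ± 0.15 and PSMB6 at -0.77 ± 0.04.

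**Figure D3:**
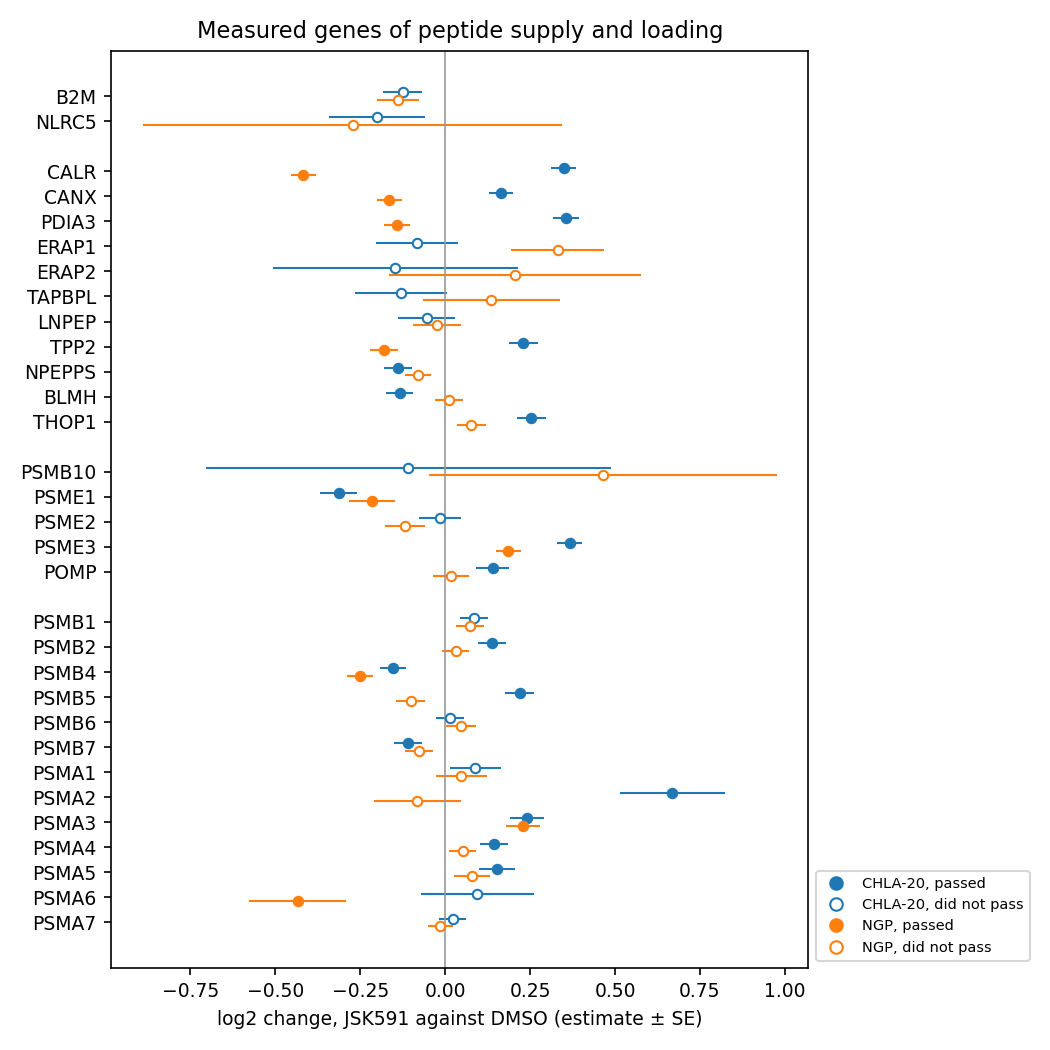
Log2 change with JSK591 against DMSO (estimate ± SE) in CHLA-20 and NGP for the 2 tested members and for genes of peptide loading, the immunoproteasome and its activator, and the proteasome core; filled points passed the adjusted threshold of 0.05. CALR, CANX, PDIA3 and TPP2 lie on opposite sides of 0 in the lines, and B2M lies just below 0 in both without passing.

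NLRC5 acts on class I promoters with RFX5, RFXAP and RFXANK, the NF-Y trimer of NFYA, NFYB and NFYC, and factors of the CREB family. In NGP 7 of these 8 partners (CREB1 and ATF1 included) fell and RFX5 rose (median -0.21), where 19.4% of all genes tested fell and 16.8% rose. In CHLA-20 3 fell and 0 rose (median -0.01), where 22.4% of all genes tested fell and 16.9% rose. RFX5 stood in CHLA-20 at 66.0 and 67.1 CPM with DMSO and 56.8 and 56.4 with JSK591, and in NGP at 60.3 and 60.8 with DMSO and 79.1 and 81.5 with JSK591. It fell by 0.23 ± 0.05 in CHLA-20 and rose by 0.41 ± 0.05 in NGP, and the difference passed (0.64 ± 0.07, edgeR adjusted p = 7.38e-12). RFX5 thus moved against the rest of its complex in NGP, where RFXANK fell by 0.52 ± 0.07.

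Of the other partners in NGP, ATF1 fell by 0.46 ± 0.08, NFYA by 0.31 ± 0.05 and NFYC by 0.22 ± 0.05. NFYB fell by 0.21 ± 0.06 and CREB1 by 0.21 ± 0.05, and both calls were lost without NGP DMSO replicate 1 (-0.14 and -0.13). RFXAP fell by 0.19 ± 0.08, a call lost without either CHLA-20 JSK591 library (-0.19 each), without NGP DMSO replicate 1 (-0.17) or 2 (-0.21), or without NGP JSK591 replicate 2 (-0.08), and larger without NGP JSK591 replicate 1 (-0.32). In CHLA-20 RFXANK fell by 0.23 ± 0.06 (-0.14 without DMSO replicate 2, -0.19 without JSK591 replicate 1, neither called, and -0.10 and not called with the GC trend removed). NFYB fell there by 0.14 ± 0.05, which was not called without DMSO replicate 1 (-0.16) or 2 (-0.10), JSK591 replicate 1 (-0.07) or NGP JSK591 replicate 1 (-0.11), and was -0.21 without JSK591 replicate 2. Between untreated lines RFXAP (1.45 ± 0.09) and CREB1 (0.62 ± 0.05) were higher and RFXANK (-0.78 ± 0.07) lower in NGP. RFX5 was lower by 0.14 ± 0.05 on the log2 scale, a call lost without CHLA-20 DMSO replicate 2 (-0.09), and also without NGP JSK591 replicate 1 (-0.10), so the partners of NLRC5 were present in NGP while NLRC5 itself was near the limit of counting.

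Interferon receptors signal through JAK kinases to transcription factors, the IRF family among them, which together with NF-kB switch on NLRC5 and the class I genes. IRF2, which binds the same elements as IRF1, stood at 20.3 and 20.8 CPM in CHLA-20 with DMSO and 15.7 and 15.4 with JSK591, and at 11.6 and 13.7 in NGP with DMSO and 9.17 and 9.72 with JSK591. It fell by 0.41 ± 0.08 in CHLA-20 and by 0.42 ± 0.09 in NGP, and the groups did not overlap. IRF1 stood between 0.317 and 1.98 CPM in all libraries, with both JSK591 libraries below both DMSO libraries in each line, and its changes of -0.38 ± 0.23 and -0.75 ± 0.37 did not pass (edgeR adjusted p = 0.194 and 0.111). Of 23 genes of interferon and NF-kB signalling 21 were tested, and in CHLA-20 11 fell and 2 rose (median -0.25, all genes -0.02), and in NGP 5 fell and 0 rose (median -0.09).

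NFKB2, the precursor of the NF-kB subunit p52, fell in CHLA-20 by 0.85 ± 0.13, from 6.68 and 6.34 to 4.04 and 3.18 CPM, and gave -0.28 ± 0.12 in NGP (-0.40 and called without NGP DMSO replicate 1, -0.35 and called with the GC trend removed). NFKBIA, the inhibitor that NF-kB induces, fell in NGP by 0.47 ± 0.05 and gave -0.13 ± 0.06 in CHLA-20. SOCS3, a feedback inhibitor of JAK kinases, fell in CHLA-20 by 0.44 ± 0.14, a call lost without DMSO replicate 1 (-0.37), JSK591 replicate 1 (-0.45) or 2 (-0.43). Untreated NGP had more SOCS1 (3.32 ± 0.40) but less IRF1 (-1.51 ± 0.27) and SOCS3 (-2.17 ± 0.18) than CHLA-20. Of the 21 tested genes of this list, 6 were higher and 7 lower in untreated NGP, against 36.6% and 38.9% of all genes tested. The part of IRF1 in the lower NLRC5 and B2M of NGP was not tested.

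**Figure D4:**
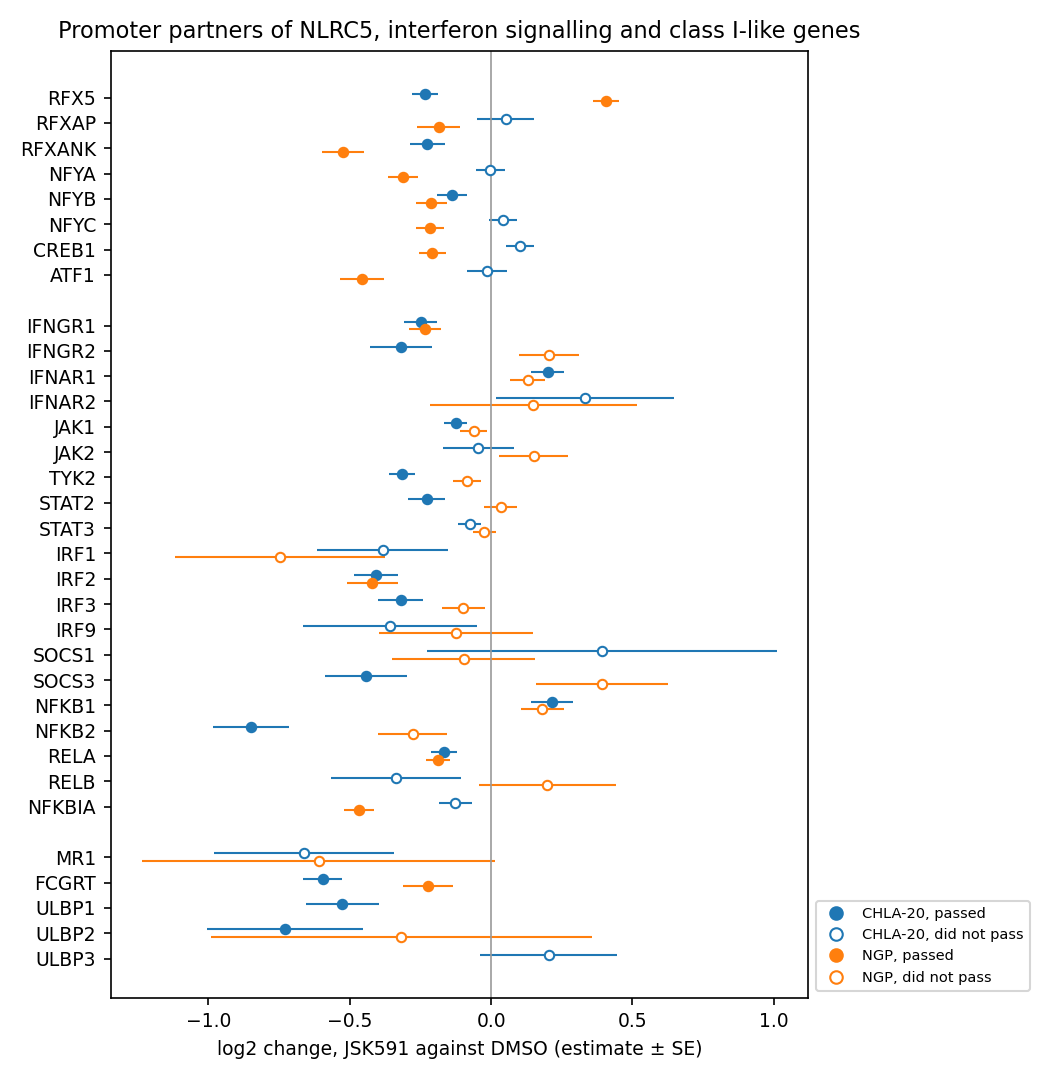
Log2 change with JSK591 against DMSO (estimate ± SE) in CHLA-20 and NGP for partners of NLRC5 at promoters, interferon and NF-kB signalling genes and class I-like genes; filled points passed, and genes with at most 3 counts in both groups of a line have no point there. RFX5 lies below 0 in CHLA-20 and above 0 in NGP, and IRF2 lies below 0 in both lines.

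Of the 12 other class I chains and stress ligands, 5 could be tested. HLA-E and HLA-G were listed at 0 in all libraries and HLA-F at 1 count, in the same stretch of chromosome 6. FCGRT, the class I-like receptor that binds IgG and pairs with B2M, stood at 26.4 and 26.3 CPM in CHLA-20 with DMSO and 17.4 and 17.5 with JSK591. It fell there by 0.60 ± 0.07, and in NGP by 0.22 ± 0.09, a call lost without NGP DMSO replicate 1 (-0.23) or 2 (-0.22) or NGP JSK591 replicate 1 (-0.19). MR1, which shows vitamin metabolites to T cells and also pairs with B2M, gave -0.66 ± 0.32 and -0.61 ± 0.62, neither passing. The NKG2D ligands ULBP1 and ULBP2, seen by natural killer cells, fell in CHLA-20 by 0.53 ± 0.13 and 0.73 ± 0.28. Without JSK591 replicate 1 neither call held (-0.35 and -0.87), and for ULBP2 also not without DMSO replicate 2 (-0.54) or JSK591 replicate 2 (-0.61). In sum 3 of the 5 fell in CHLA-20 (median -0.60) and 1 in NGP (median -0.22).

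All 5 were lower in untreated NGP than in CHLA-20, with FCGRT at -1.26 ± 0.08. MR1, ULBP1, ULBP2 and ULBP3 passed the filter on low counts through their CHLA-20 libraries alone. Their lower level in NGP therefore follows from which genes were tested, and of the 5 only FCGRT was well counted in both lines. Of all genes tested, 38.9% were lower in this comparison. ULBP1 had 586 counts over the CHLA-20 DMSO libraries and 2 over those of NGP, a ratio of 283 (exact binomial interval 78.0 to 2340). ULBP3 had 109 counts against 0 and was at least 35.1-fold lower in NGP with a floor of 3 counts over the group. ULBP2 had 110 counts against 11, a ratio of 9.66 (5.19 to 19.9). FCGRT, which pairs with B2M and was well counted in both lines, was thus lower in NGP together with B2M. MYCN, amplified in part of neuroblastomas, averaged 2.34 CPM in CHLA-20 and 2321 CPM in NGP with DMSO.

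The polycomb complex PRC2 is known to silence class I genes in some tumours, and its part in the levels here was not tested. JARID2 rose in CHLA-20 by 0.23 ± 0.05 and the core subunit SUZ12 by 0.18 ± 0.04, and MTF2 fell by 0.15 ± 0.05, not called without any single CHLA-20 library (-0.15 to -0.13) or NGP JSK591 replicate 1 (-0.12). In NGP MTF2 fell by 0.21 ± 0.05 and the catalytic subunit EZH2 by 0.13 ± 0.04, the latter not called without NGP DMSO replicate 2 (-0.10) or JSK591 replicate 2 (-0.12). Of the 6 genes 2 rose and 1 fell in CHLA-20 and 2 fell in NGP (medians 0.04 and -0.04). Of all genes tested, 39.4% and 36.2% were called in these lines. Untreated NGP had less PHF19 (-1.95 ± 0.05) and SUZ12 (-1.12 ± 0.04) and more JARID2 (1.07 ± 0.05). Of 10 class II genes 8 were listed at 0, all of them in the MHC. The class II transactivator CIITA gave 0.20 ± 0.29 in CHLA-20 and rose in NGP by 0.90 ± 0.30, from 0.774 and 0.659 to 1.64 and 1.03 CPM, a call lost without NGP DMSO replicate 2 (0.79) or JSK591 replicate 1 (0.50). The invariant chain CD74, on chromosome 5, was higher in untreated NGP (2.14 ± 0.36). PRMT5, the drug target, stood at 45.7 and 48.2 CPM in CHLA-20 and 62.1 and 59.7 in NGP (means with DMSO and with JSK591) and passed in neither.

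Markers matched neuroblastoma in CHLA-20 and only in part in NGP. With DMSO 8 of 9 markers averaged at least 1 CPM in CHLA-20 and 6 of 9 in NGP. The catecholamine enzymes TH and DBH were at most 0.838 and 0.353 CPM in NGP. CHGA was listed at 0 or 1 count in every library of both lines, so it does not tell the lines apart. PSMB3, also outside the MHC, was listed near 0 as well, and whether the CHGA counts reflect its expression was not tested. With JSK591 1 of 8 tested markers rose and 6 fell in CHLA-20 (median -0.32), and 3 rose and 3 fell in NGP (median 0.07). Of all genes tested, 16.9% rose and 22.4% fell in CHLA-20, and 16.8% rose and 19.4% fell in NGP. HAND2, a core transcription factor of these cells, fell by 0.55 ± 0.04 in CHLA-20 and rose by 0.34 ± 0.04 in NGP. GATA3, another factor of the lineage, fell by 0.36 ± 0.04 in each line. PHOX2A fell by 0.36 ± 0.04 in CHLA-20 (by 0.18 with the GC trend removed) and by 0.16 ± 0.04 in NGP (-0.25 with the GC trend removed, -0.09 and not called without NGP DMSO replicate 2). DBH rose in CHLA-20 by 0.51 ± 0.05. B2M and NLRC5 gave no call, but both had far fewer counts than PHOX2A. In NGP with DMSO, PHOX2A stood at 705 and 774 CPM and B2M at 35.0 and 34.8. The change of B2M in NGP (-0.14) was close in size to the called change of PHOX2A (-0.16). Between untreated lines TH (-10.82 ± 0.08) and DBH (-7.35 ± 0.13) were lower in NGP.

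Markers of other cells moved as well, and their part in the changes above was not tested. Of 9 blood cell markers 1 could be tested, LCP1, and the list summed to 1.83 to 2.38 CPM in CHLA-20 and 14.9 to 17.95 in NGP, where LCP1 was higher by 3.22 ± 0.13 on the log2 scale. The 9 fibroblast and endothelial markers summed to 490.4 to 491 CPM with DMSO and 419 to 426 with JSK591 in CHLA-20, and to 585 to 604 and 659 to 697 in NGP. With JSK591 1 of the 7 tested rose and 4 fell in CHLA-20, and 1 rose and 2 fell in NGP, to be read against the same shares of all genes tested. COL1A1, a collagen chain, fell by 0.57 ± 0.05 in CHLA-20 and rose by 0.22 ± 0.04 in NGP, while COL1A2 rose by 0.62 ± 0.11 in CHLA-20. VWF fell in CHLA-20 by 1.68 ± 0.48 (-1.28 without DMSO replicate 1 and -1.30 without JSK591 replicate 1, neither called). In NGP LUM fell by 0.50 ± 0.15 and PDGFRB by 0.19 ± 0.06, and neither was called without NGP DMSO replicate 2 (-0.26 and -0.16). Between untreated lines DCN (-10.09 ± 0.12), COL1A2 (-5.49 ± 0.26) and LUM (-5.38 ± 0.07) were lower in NGP.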

How the data were processed

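RNA was enriched for messenger RNA and sequenced with DNBseq technology, per the labels' protocols. The authors deposited raw counts per Ensembl gene, 1 file per library, and the submitters' processing notes name STAR, HTSeq, DESeq2 and GRCh38 (hg38). Versions, strand setting and annotation, and whether the alternate MHC sequences of GRCh38 were used in the alignment, are not given in the sources used here. All 58721 identifiers, with versions, matched GENCODE 29. Rows that name no gene were left out (5.15% to 6.86% outside genes). Intervals and floors cover counting error only.

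One edgeR 4.0.16 quasi-likelihood model (R 4.3.3) was fitted to all 8 libraries and 4 groups, after filterByExpr (19395 genes) and TMM scaling, with no replicate block. It had 4 residual degrees of freedom. P-values were Benjamini-Hochberg adjusted over all genes tested, with 0.05 as threshold, and SEs derived from the F statistic. CPM use TMM-scaled totals. The fit was also run on simulated data with known changes. Those data had the same spread for every gene, so the run does not cover genes that vary more. The members and the 12 gene lists were chosen with earlier results of these data known. Genes named from a list are up to 3 per comparison with the largest called changes whose groups do not overlap, and a set named whatever their values; 3 genes so chosen are not reported here but stay in the list counts. MR1, HLA-G, PSMB3, NFYA, NFYC, CHGA, the stretch of the MHC with its other genes, the check of 50-base windows and the count ratios were chosen after values were seen. The labels give the groups the same replicate numbers, but the deviations of same-numbered libraries did not correlate (r from -0.024 to 0.01), so the numbers were not used as pairs. Alternatives were other scalings and filters, DESeq2 1.42.0, replicate blocks, only the 4 libraries compared, removal of the GC trend and leaving out each library.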

Additional observations from a re-analysis of the deposited data

Results flagged for a closer look

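For 27 of the genes named above, the response to JSK591 differed between CHLA-20 and NGP by a test of the difference itself (edgeR, adjusted over all genes tested), a call made for 27.7% of all genes tested. Neither B2M nor NLRC5 is among them. Values are log2 differences, NGP minus CHLA-20, with 2 libraries per group.

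Of the loading and trimming genes, CALR differed by -0.77, PDIA3 by -0.50, TPP2 by -0.41 and CANX by -0.33, and these calls held with any 1 library left out. THOP1 differed by -0.18, a call lost without CHLA-20 DMSO replicate 1 (-0.15), CHLA-20 JSK591 replicate 1 (-0.14), NGP DMSO replicate 2 (-0.11) or NGP JSK591 replicate 2 (-0.16). The proteasome genes PSMB5, PSMA2 and PSME3 differed by -0.32, -0.75 and -0.18. FCGRT differed by 0.37, which was not called without NGP JSK591 replicate 2 (0.32).

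Of the partners of NLRC5, RFX5 differed by 0.64, ATF1 by -0.44, CREB1 by -0.31, NFYA by -0.31 and NFYC by -0.26, and these 5 calls held with any 1 library left out. RFXANK differed by -0.30 and was not called without CHLA-20 DMSO replicate 1 (-0.24), CHLA-20 JSK591 replicate 2 (-0.26), NGP DMSO replicate 1 (-0.28) or NGP JSK591 replicate 2 (-0.26). NFKBIA differed by -0.34. NFKB2 differed by 0.57, not called without CHLA-20 JSK591 replicate 2 (0.41) or NGP DMSO replicate 1 (0.45). SOCS3 differed by 0.83, not called without NGP DMSO replicate 2 (0.70) or NGP JSK591 replicate 2 (0.66).

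CD74 differed by 1.68 at under 3 CPM in every library, and the call was lost with 6 of 8 libraries left out in turn (CHLA-20 DMSO replicate 1 at 1.68 and 2 at 1.64, CHLA-20 JSK591 replicate 1 at 1.51 and 2 at 1.87, NGP DMSO replicate 2 at 1.44, NGP JSK591 replicate 1 at 1.495). EZH2 differed by -0.20 (-0.17 and not called without NGP DMSO replicate 2). SUZ12 differed by -0.16, lost without CHLA-20 DMSO replicate 1 (-0.15), CHLA-20 JSK591 replicate 2 (-0.11), NGP DMSO replicate 1 (-0.14) or NGP JSK591 replicate 2 (-0.15). JARID2 differed by -0.18, lost without CHLA-20 DMSO replicate 2 (-0.14), CHLA-20 JSK591 replicate 1 (-0.15) or 2 (-0.21), NGP DMSO replicate 1 (-0.16) or NGP JSK591 replicate 2 (-0.20). MYCN differed by -0.47 from low CHLA-20 counts. Its call was lost without CHLA-20 DMSO replicate 2 (-0.37), CHLA-20 JSK591 replicate 2 (0.0034), NGP DMSO replicate 2 (-0.42) or NGP JSK591 replicate 2 (-0.46), and it was -0.83 without CHLA-20 JSK591 replicate 1.

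Of the markers, HAND2 differed by 0.89 and COL1A1 by 0.79. PHOX2A differed by 0.20, not called without CHLA-20 DMSO replicate 2 (0.13), CHLA-20 JSK591 replicate 2 (0.17) or NGP DMSO replicate 1 (0.14). PDGFRB differed by 0.26, not called without NGP JSK591 replicate 1 (0.19).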

How the results depend on the processing

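B2M kept its direction in each line under every alternative run. In CHLA-20 it ranged from -0.2002 to -0.0521 with 1 library left out, and it passed with the GC trend removed (-0.17). In NGP it ranged from -0.2516 to -0.0554 and passed with median-of-ratios scaling (-0.16). Without the filter on low counts B2M passed in neither line (edgeR adjusted p = 0.372 in CHLA-20 and 0.315 in NGP). The lower B2M and NLRC5 of untreated NGP were called under every alternative that tested them. The number of genes whose response differed between lines was 5368, and 3415 by DESeq2 (5198 against 7639 and 4706 against 7022 for the responses in CHLA-20 and NGP); the cause was not tested. In NGP 3267 genes were higher and 3755 lower, against 3590 and 3222 with total count scaling. The difference between the lines had 2950 higher and 2418 lower, against 2406 and 2943 with the GC trend removed. Of 4031 values of other named genes under alternatives, 3823 kept their call, 167 lost it, 38 gained one and 3 turned: MYCN (0.0034 without CHLA-20 JSK591 replicate 2, in a range from -0.8281 with 1 library left out) and PHOX2A (-0.0755) in the difference between the lines, and HAND2 between the untreated lines (0.0102), the last pair with the GC trend removed. A fit with the replicate number as a block called 7644, 7013, 5397 and 14615 genes in the 4 comparisons, against 7639, 7022, 5368 and 14637 without it, so the pairing by number moved little. The 4 libraries of 1 line cannot give the difference between the lines. With 1 library left out, the lone library of its group is assumed to vary like the other groups. Counts limit NLRC5 in NGP and every gene of the MHC stretch.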
